A study of Mus musculus with 8 samples.

Results

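Voltage-gated sodium and calcium channels are the proteins through which a change in membrane voltage lets sodium or calcium into a neuron. A large pore-forming subunit opens on depolarization, while smaller auxiliary subunits adjust its gating and carry it to the membrane. In the cerebellum, sodium channels drive the fast spontaneous firing of Purkinje cells, and P/Q-type calcium channels admit the calcium that fills Purkinje dendrites and triggers transmitter release. The genes described here were 29 listed subunits, found in the gene table by matching its Ensembl identifiers to GENCODE symbols, out of 56691 genes in all. They comprised 11 sodium channel genes and 18 calcium channel genes, and the list does not hold every gene of both families. Of these, 26 passed the filter on low counts, and *Scn4a*, *Scn10a* and *Cacna1f* did not.

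Expression was measured by bulk RNA sequencing of frozen cerebellum from 8 mice at 6 months of age, and each mouse gave its own library. The *Atm*-WT group (ATM +/+) held mice 2M, 7M, 13M and 32M, and the *Atm*-KO group (ATM -/-) held mice 1M, 7F, 11M and 12M, of which only 7F carries the letter F in its label. No drug or diet treatment is given for any of these mice. The animals came from the B6;129S4-Atmtm1Bal/J stock, which is of mixed strain background, and *Atm* lies on chromosome 9 at 53348097-53448236 (GRCm39). The labels pair no mice between genotypes.

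Total counts ranged from 65967130 to 88030300 per library. *Atm* itself stood at 67.6, 80, 79.4 and 59 CPM (counts scaled to a common library size) in *Atm*-WT and at 51.1, 44.3, 41.1 and 44.9 CPM in *Atm*-KO. The knockout libraries therefore kept reads on the gene but lay below every *Atm*-WT library, with a log2 fold change of -0.66 (SE 0.1, edgeR adjusted p = 0.0775). The tissue label fitted its markers: the Purkinje cell gene *Pcp2* ranged from 41.1 to 84.4 CPM and the granule cell gene *Gabra6* from 535 to 707 CPM. By genotype, the mean CPM of *Pcp2* was 67.4 ± 13.6 without and 51.2 ± 9.14 with the knockout (SD, n = 4), with overlap and a log2 fold change of -0.4 that did not pass the adjusted threshold. Of 6 Purkinje cell markers 5 had a lower mean in *Atm*-KO (median log2 fold change -0.13, summed CPM from 7740 to 9620 in *Atm*-WT mice against 7620 to 9190 in *Atm*-KO mice), and their part in the values of the channel genes was not tested. Of 6 granule cell markers 4 had a higher mean (median 0.05). Across all 22423 genes tested, edgeR's quasi-likelihood test called 4 genes (0.0178%) at an adjusted p under 0.05. In whole tissue, fewer cells of a type and less RNA per cell cannot be told apart.

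None of the 26 channel genes passed the adjusted threshold in edgeR, and none reached an adjusted p under 0.1, a mark that 1.9% of all genes passed. At an unadjusted p under 0.05, 2 of the 26 passed, both higher in *Atm*-KO, against a background of 20.2% of all genes, split into 11.7% higher and 8.48% lower. That count rested on single mice: without mouse 12M it was 4 (*Scn9a*, *Cacna1b* and *Cacna2d1* higher and *Scn2b* lower, background 14.2%), without mouse 2M, 13M or 1M it was 1 (*Cacna1b*, backgrounds 16.8%, 19.8% and 13.6%), and with a surrogate variable in the fit or without both mice 32M and 12M it was 6 (those 4 with *Scn3a* and *Scn3b*, both higher, backgrounds 13.3% and 13.4%). DESeq2 called 7.49% of the genes to which it gave an adjusted p and 0 of the 25 channel genes among them, the smallest adjusted p being 0.0653. Of the 26 genes, 12 had a higher and 14 a lower mean in *Atm*-KO. Their median log2 fold change was -0.009, beside -0.018 over all genes tested, of which 53.1% were lower. All 26 are protein-coding. Over protein-coding genes, split by the length of genome they span, the median was -0.076 to -0.048, and 31.2% to 38% were higher. The largest absolute log2 fold change was 0.47, for *Scn11a*, and the 95% interval lay within 0.5 of zero for 18 genes. For those 18, a change larger than that size lay outside the interval, whereas the remaining intervals were wider.

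**Figure D1:**
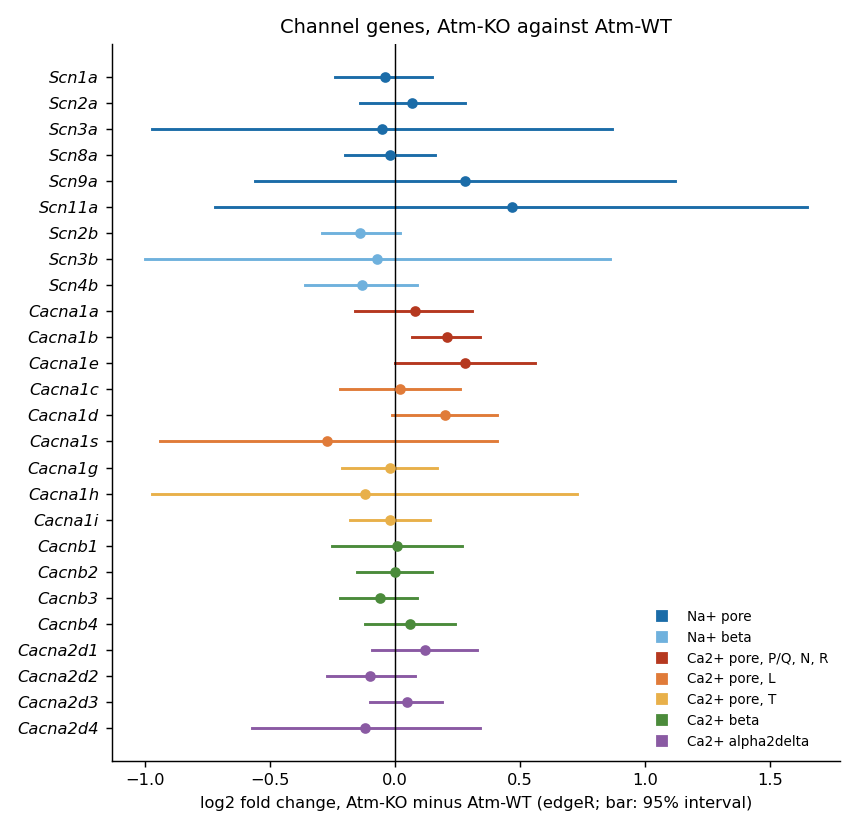
Log2 fold change of 26 channel genes between *Atm*-KO and *Atm*-WT cerebellum, by role; points are edgeR estimates and bars their 95% intervals (4 libraries per genotype). The interval of *Cacna1b* runs from 0.07 to 0.34, whereas those of *Scn3a*, *Scn3b*, *Scn9a*, *Scn11a*, *Cacna1h* and *Cacna1s* span more than a log2 unit.

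Levels between genes were compared as RPKM, that is CPM divided by the annotated exonic length in kilobases. That length joins all annotated exons of a gene, so the order of genes depends on the annotation. *Scn2b*, which encodes an auxiliary beta subunit of sodium channels, was the highest at 137 RPKM ± 9.42 (SD, n = 8) and did not overlap the next gene. *Cacnb4*, the calcium channel beta subunit whose loss causes ataxia in the lethargic mouse, followed at 82 ± 6.04 RPKM, and its range overlapped that of *Scn2a* at 76.5 ± 7.52 RPKM. *Scn1a* (43.2 RPKM), *Cacna1g* (40.9), *Scn8a* (33.6), *Cacna1a* (33.5) and *Scn4b* (32.5) came next, and each overlapped its neighbour in this order. *Cacna2d2* (22.9 RPKM) and *Cacna1i* (19.1 RPKM) overlapped each other but not *Cacna1e* (14.9 RPKM), which in turn overlapped *Cacna1b* (12.4 RPKM). *Cacna1c* stood alone at 8.39 RPKM. Between 4.81 and 5.83 RPKM lay *Cacnb3*, *Cacna1d*, *Cacna2d1* and *Cacna2d3*, each overlapping its neighbour, and *Cacnb2* and *Cacnb1* overlapped at 3.67 and 3 RPKM. *Scn3b*, *Scn3a* and *Cacna1h* had 1.49, 1.08 and 0.855 RPKM with overlapping ranges, and all remaining genes lay at or below 0.183 RPKM.

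**Figure D2:**
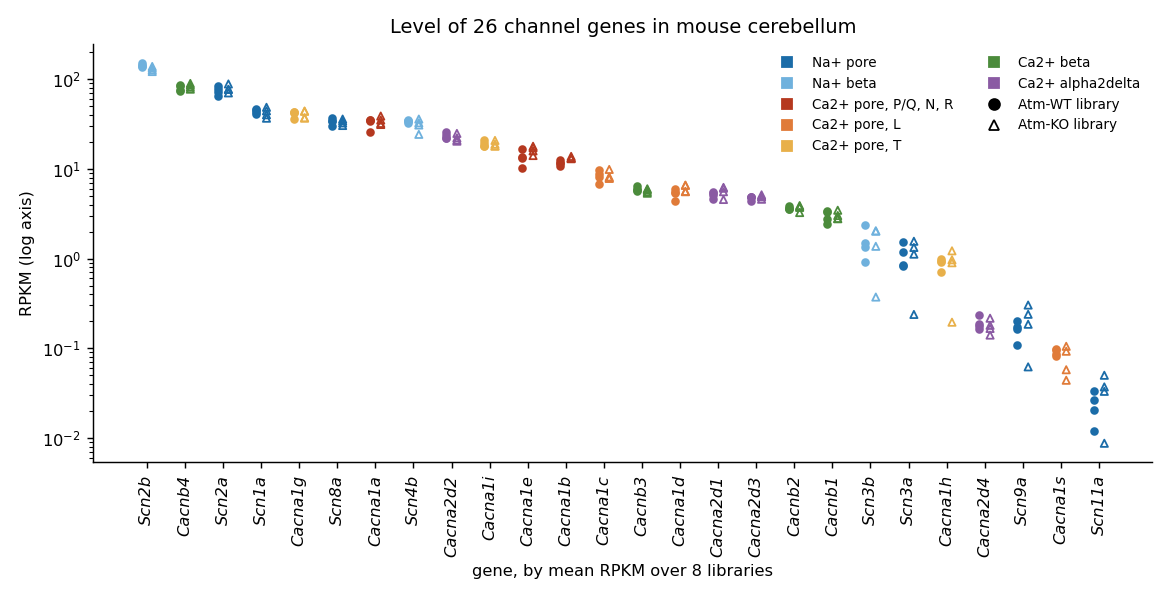
RPKM of 26 channel genes on a log axis, ordered by their mean over 8 libraries; filled circles are *Atm*-WT and open triangles *Atm*-KO libraries, coloured by role. *Scn2b* lies highest at 122 to 152 RPKM, and for *Scn3b*, *Scn3a*, *Cacna1h* and *Scn9a* an *Atm*-KO library lies below the other 7.

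Sodium channel pores in this tissue came almost wholly from 3 genes. *Scn2a*, abundant in granule cell axons, gave 48.5% ± 1.38 of the summed RPKM of the 8 pore genes in *Atm*-WT and 50.4% ± 3.8 in *Atm*-KO (SD, n = 4). *Scn1a*, the gene mutated in Dravet syndrome and active in inhibitory neurons, gave 28.6% ± 1.61 and 27.3% ± 2.89. *Scn8a*, which supplies much of the Purkinje cell's sustained and resurgent sodium current, gave 22% ± 0.926 and 21.5% ± 0.86. These shares overlapped between genotypes.

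In CPM, *Scn2a* stood at 938, 1090, 1020 and 843 in *Atm*-WT and at 918, 1000, 1010 and 1160 in *Atm*-KO, with a log2 fold change of 0.07 (SE 0.097, 95% interval -0.14 to 0.28). *Scn1a* stood at 470, 531, 538 and 495 CPM in *Atm*-WT and at 465, 516, 564 and 427 CPM in *Atm*-KO (log2 fold change -0.04, interval -0.24 to 0.15). *Scn8a* stood at 546, 581, 537 and 471 CPM in *Atm*-WT and at 482, 569, 543 and 516 CPM in *Atm*-KO (log2 fold change -0.02, interval -0.2 to 0.16). For all 3 genes the genotypes overlapped, and the extremes sat in mice 32M and 12M more often than in the others: 32M was lowest for *Scn2a* and *Scn8a*, and 12M was highest for *Scn2a* and lowest for *Scn1a*. Transcripts of *Scn1a* and *Scn2a* share an identical stretch of 188 bases, the longest between any pair of these genes, and reads inside it could not be assigned to either gene by sequence alone.

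The genes of low level include those known from other excitable tissues. *Scn4a*, the skeletal muscle pore, had at most 11 counts and *Scn10a*, a pore of peripheral sensory neurons, at most 2, with 0 counts of either in all *Atm*-KO libraries. A count of 0 allows up to 0.0367 to 0.0444 CPM in those libraries, for counting error only, and up to 0.0734 to 0.0887 CPM if both reads of a pair were counted. Even numbers made up 67.3% to 73.3% of the counts up to 50 in each library, so whether a small count stands for reads or for pairs was not settled. *Scn11a*, another sensory neuron pore, had between 4 and 20 counts, and its log2 fold change of 0.47 carried an interval from -0.72 to 1.65. Over the 17 alternatives that tested *Scn11a*, the log2 fold change ranged from -0.04 to 0.8 and turned sign in 2. Beside them, 5 skeletal muscle markers summed to 0.201 to 0.909 CPM in *Atm*-WT and 0.453 to 3.13 CPM in *Atm*-KO libraries. The 4 peripheral sensory neuron markers summed to 1.89 to 3.81 CPM in *Atm*-WT and 4.35 to 6.83 CPM in *Atm*-KO libraries. The 3 of them that were tested had a higher mean in *Atm*-KO (median log2 fold change 0.81), and 0 passed the adjusted threshold. Their part in the values of *Scn11a* was not tested.

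Sodium channel beta subunits were dominated by *Scn2b*, at 80.1% of the summed RPKM in *Atm*-WT and 80% in *Atm*-KO, with *Scn4b*, the subunit tied to resurgent current in Purkinje cells, at 19.1% in both. *Scn2b* stood at 670, 707, 648 and 638 CPM in *Atm*-WT and at 566, 618, 592 and 647 CPM in *Atm*-KO. Only *Atm*-KO mouse 12M reached into the *Atm*-WT range. The log2 fold change was -0.14 (SE 0.069, interval -0.29 to 0.02) and did not pass the test (edgeR adjusted p = 0.294). *Scn4b* stood at 173, 175, 179 and 166 CPM in *Atm*-WT and at 157, 166, 183 and 123 CPM in *Atm*-KO, with its lowest value in mouse 12M and its highest in mouse 11M. Its log2 fold change was -0.13 (interval -0.36 to 0.09), and across the alternatives it ranged from -0.2 to -0.02.

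All 3 beta subunit genes had a lower mean in *Atm*-KO, which held under each other normalization, although *Scn3b* turned higher when mouse 12M or mouse 32M was left out. Their summed RPKM ranged from 172 to 187 in *Atm*-WT and from 154 to 168 in *Atm*-KO without overlap, a sum picked out after its values were seen. *Scn2b* and *Scn4b* are neighbours on chromosome 9 at 45029080-45041368 and 45049595-45065452 (GRCm39, plus strand), 8.307 and 8.283 Mb from *Atm*, and *Scn3b* lies 13.1 Mb away. The part of this linkage in the values was not tested.

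The start regions of *Scn2b* and *Scn4b* are shown because these neighbouring genes carry nearly all beta subunit RNA yet differ in base composition, with 38.3% and 66.3% G and C against a median of 52.7% over 32851 promoters. They come from RefSeq, hold 250 bases before and 50 after the annotated start, and lie on the plus strand at chr9:45028924-45029223 and chr9:45049672-45049971 by exact match to GRCm39, 94 and 327 bases from the nearest GENCODE start. Capitals mark a GC box (GGGCGG, in 35.7% of all promoters), a CCAAT box (CCAAT, in 37.4%) or a TATA box (TATAAA, in 13.6%), searched on both strands.
Scn2b: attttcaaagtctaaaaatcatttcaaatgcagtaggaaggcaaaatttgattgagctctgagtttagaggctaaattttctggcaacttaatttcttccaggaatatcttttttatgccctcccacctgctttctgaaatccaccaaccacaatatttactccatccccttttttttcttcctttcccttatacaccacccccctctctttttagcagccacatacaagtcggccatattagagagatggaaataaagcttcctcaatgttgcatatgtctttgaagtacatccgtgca
Scn4b: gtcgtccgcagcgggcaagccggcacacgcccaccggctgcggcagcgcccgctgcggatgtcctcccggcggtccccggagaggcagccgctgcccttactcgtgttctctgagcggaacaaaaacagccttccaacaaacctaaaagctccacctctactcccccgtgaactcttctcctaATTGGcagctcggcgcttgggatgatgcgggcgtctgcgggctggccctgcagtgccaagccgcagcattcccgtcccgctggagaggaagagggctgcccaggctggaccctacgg
*Scn4b* held a single CCAAT box, read on the opposite strand, and *Scn2b* held none of these letters in this window. RefSeq promoters were found for 23 of the 29 genes.

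By RPKM, calcium channel pores were led by *Cacna1g*, a low-voltage-activated T-type pore of Purkinje and deep nuclear neurons, with 31.1% ± 0.964 of the summed RPKM of 10 pore genes in *Atm*-WT and 29.2% ± 1.32 in *Atm*-KO. *Cacna1a*, the P/Q-type pore mutated in episodic ataxia and in the tottering mouse, followed with 24.5% ± 1.33 and 24.7% ± 0.736. *Cacna1i* gave 14.6% and 13.7%, *Cacna1e* 10.1% and 11.7%, and *Cacna1b* 8.74% and 9.63%, and every share overlapped between genotypes. In CPM, which is not divided by length, *Cacna1a* stood above *Cacna1g*, with means of 623 against 426 in *Atm*-WT and 657 against 420 in *Atm*-KO. The order of *Cacna1g* and *Cacna1a* therefore rests on their annotated exonic lengths of 10343 and 19106 bases.

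The P/Q-, N- and R-type pores, which release transmitter at most central synapses, held both genes at an unadjusted p under 0.05. *Cacna1b*, the N-type pore, stood at 115, 125, 115 and 107 CPM in *Atm*-WT and at 132, 130, 138 and 133 CPM in *Atm*-KO. Every *Atm*-KO library lay above every *Atm*-WT library, and this was the single channel gene of the 26 without overlap, against 11.6% of all genes. The log2 fold change was 0.21 (SE 0.061, interval 0.07 to 0.34), a ratio of 1.15, with an edgeR p of 0.00559 and an adjusted p of 0.12 that missed the threshold. Its exact permutation p was 0.0286, the smallest that 4 against 4 mice allow. Across the alternatives its log2 fold change ranged from 0.17 to 0.29 and its adjusted p from 0.0653 to 0.309.

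*Cacna1e*, the R-type pore, stood at 339, 424, 350 and 264 CPM in *Atm*-WT and at 408, 458, 361 and 442 CPM in *Atm*-KO. *Atm*-WT mouse 7M lay within the *Atm*-KO range and mouse 32M lay far below the rest. The log2 fold change was 0.28 (SE 0.13, interval 0 to 0.56, edgeR adjusted p = 0.246). Without mouse 32M it was 0.17 and without mice 32M and 12M it was 0.14, and in neither fit did *Cacna1e* keep an unadjusted p under 0.05. *Cacna1a* stood at 676, 666, 656 and 493 CPM in *Atm*-WT and at 615, 671, 598 and 743 CPM in *Atm*-KO, so that mouse 32M lay well below its group. The log2 fold change of *Cacna1a* was 0.08 (interval -0.16 to 0.31) and turned to -0.02 without mouse 32M.

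The L-type pores couple depolarization to slower calcium signals and to gene expression. *Cacna1d* stood at 83, 90.5, 81.4 and 66.6 CPM in *Atm*-WT and at 99.7, 85.4, 84.5 and 100 CPM in *Atm*-KO, with mice 7F and 11M inside the *Atm*-WT range. Its log2 fold change was 0.2 (interval -0.01 to 0.41, edgeR adjusted p = 0.268) and 0.12 without mouse 32M. *Cacna1c* stood at 196, 216, 183 and 150 CPM in *Atm*-WT and at 182, 177, 175 and 221 CPM in *Atm*-KO, with mouse 32M lowest and mouse 12M highest of all (log2 fold change 0.02, interval -0.22 to 0.26). *Cacna1s*, the skeletal muscle pore, had 24 to 68 counts (log2 fold change -0.27, interval -0.94 to 0.41), and *Cacna1f*, the retinal pore, had at most 20 counts, while 5 photoreceptor and pineal markers summed to 0.296 to 1.14 CPM.

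**Figure D3:**
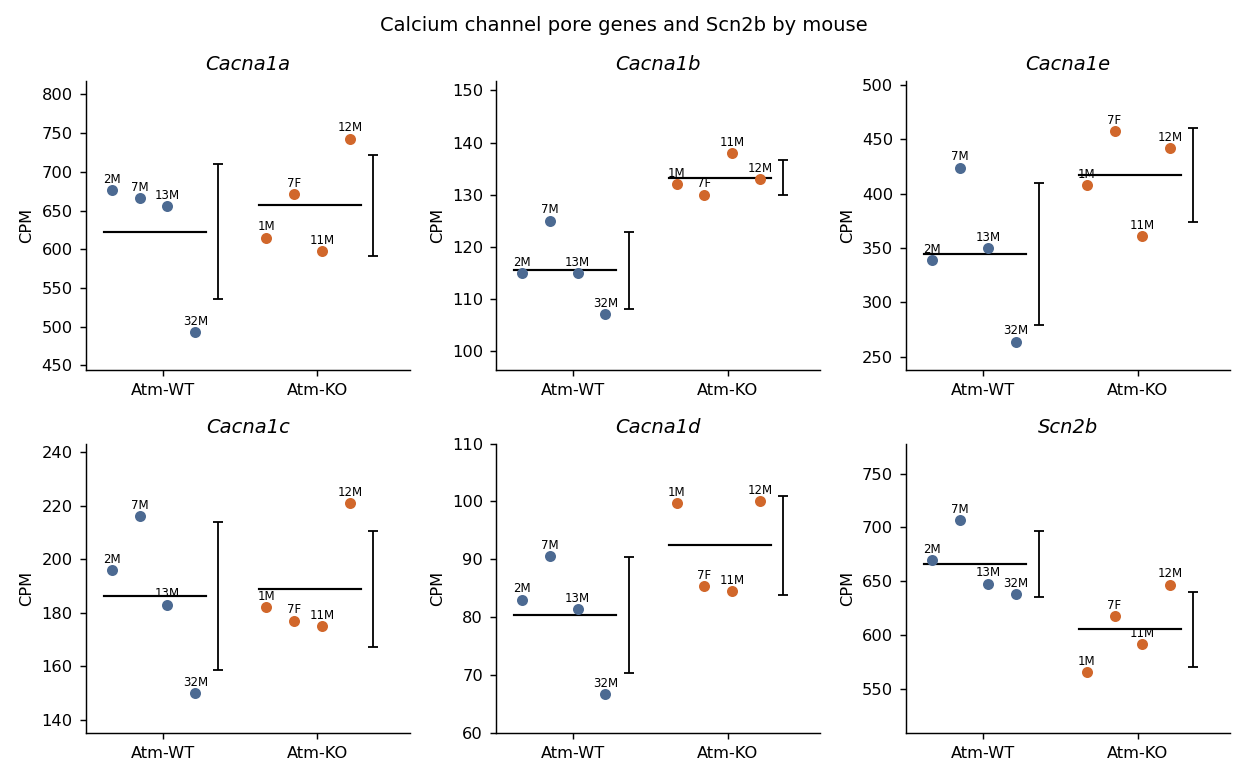
CPM of 5 calcium channel pore genes and *Scn2b* by mouse; lines are group means, bars beside them the SD (n = 4), and axes do not start at 0. The *Atm*-KO mice lie above all *Atm*-WT mice for *Cacna1b* (130 to 138 against 107 to 125 CPM), and *Atm*-WT mouse 32M lies lowest in all 5 pore genes.

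Mouse 32M was the lowest of the 8 in 9 of the 26 channel genes, and so was mouse 12M, whereas mouse 11M was highest in 8. Of the RNAs kept in the nucleus, *Malat1* had 7460, 7020, 7990 and 3630 CPM in *Atm*-WT and 12900, 8100, 8570 and 13100 CPM in *Atm*-KO. Over 8 RNAs kept in the nucleus, the median log2 level against the mean of the *Atm*-WT group was -0.41 in mouse 32M. In the remaining *Atm*-WT mice it was 0.08 to 0.14, whereas *Atm*-KO mice had 0.52 to 1.05. All 8 had a higher mean in *Atm*-KO, 7 without overlap (against 11.6% of all genes), and only *Neat1* passed the adjusted threshold (edgeR adjusted p = 0.0371), with *Malat1* at an edgeR adjusted p of 0.149. *Miat* overlapped between genotypes. The part of nuclear RNA in the values of the calcium pore genes was not tested. Among protein-coding genes that span over 250 kb of genome, 31.2% of 717 were higher in *Atm*-KO (median log2 fold change -0.06), and among the 7 channel genes of that span, 6 were higher (median 0.077). In the shorter bands the channel genes were higher in 1 of 5 under 25 kb, in 1 of 4 from 25 to 100 kb and in 4 of 10 from 100 to 250 kb, where 36%, 38% and 33.1% of protein-coding genes were higher.

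The start regions of *Cacna1b* and *Cacna1e* are shown because these were the 2 genes at an unadjusted p under 0.05. Both genes lie on the minus strand, *Cacna1b* on chromosome 2 at 24493899-24653221 and *Cacna1e* on chromosome 1 at 154266477-154760247 (GRCm39). The RefSeq regions match chr2:24653115-24653414 and chr1:154601617-154601916, 57 and 852 bases from the nearest GENCODE start, and the latter lies inside the gene because longer transcripts begin upstream. Capitals mark the same 3 boxes as above.
Cacna1b: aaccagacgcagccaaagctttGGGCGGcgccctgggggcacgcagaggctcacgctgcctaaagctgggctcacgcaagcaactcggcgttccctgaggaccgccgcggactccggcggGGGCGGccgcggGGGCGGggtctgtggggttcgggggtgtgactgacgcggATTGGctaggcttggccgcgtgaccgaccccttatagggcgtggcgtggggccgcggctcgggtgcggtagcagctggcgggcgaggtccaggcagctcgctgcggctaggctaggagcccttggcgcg
Cacna1e: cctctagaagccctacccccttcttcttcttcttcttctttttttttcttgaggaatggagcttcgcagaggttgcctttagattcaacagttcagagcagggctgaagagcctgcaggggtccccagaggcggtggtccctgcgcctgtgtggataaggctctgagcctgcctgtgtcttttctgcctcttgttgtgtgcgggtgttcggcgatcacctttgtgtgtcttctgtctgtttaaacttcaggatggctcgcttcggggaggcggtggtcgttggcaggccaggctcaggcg
*Cacna1b* held 3 GC boxes and 1 CCAAT box in a window of 72.3% G and C, and *Cacna1e* none of these letters in a window of 55.3% G and C.

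The T-type pores open near the resting potential and support rebound firing. *Cacna1g* stood at 451, 444, 436 and 373 CPM in *Atm*-WT and at 382, 458, 385 and 455 CPM in *Atm*-KO (log2 fold change -0.02, interval -0.21 to 0.17). *Cacna1i* stood at 195, 209, 178 and 179 CPM in *Atm*-WT and at 179, 177, 186 and 206 CPM in *Atm*-KO (log2 fold change -0.02, interval -0.18 to 0.14). The genotypes overlapped for both, and the signs of all 3 T-type genes turned when the trend over GC content and length was removed.

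A set of 4 channel genes, picked out after their values were seen, was low in a single animal, *Atm*-KO mouse 12M. *Scn3a*, a sodium pore prominent before birth, stood at 11.1, 15.8, 11.4 and 20.7 CPM in *Atm*-WT and at 15, 17.9, 20.9 and 3.18 CPM in *Atm*-KO. *Scn3b*, a beta subunit, stood at 10.6, 9.58, 6.57 and 16.9 CPM in *Atm*-WT and at 9.85, 14.6, 14.5 and 2.66 CPM in *Atm*-KO. *Cacna1h*, the third T-type pore, stood at 11, 9.99, 7.82 and 10.2 CPM in *Atm*-WT and at 10.6, 9.84, 13.3 and 2.13 CPM in *Atm*-KO. In each gene mouse 12M lay far below the 7 others, whose genotypes overlapped. *Scn9a*, a pore best known from nociceptors, stood at 2.1, 2.58, 1.36 and 2.2 CPM in *Atm*-WT and at 2.35, 3.03, 3.84 and 0.785 CPM in *Atm*-KO, on 53 to 298 counts.

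The same animal was low in a marker of deep nuclear and brainstem neurons. *Slc17a6*, the vesicular glutamate transporter of those neurons, stood at 74.3, 75.9, 73.6 and 116 CPM in *Atm*-WT and at 76.4, 80.1, 107 and 4.32 CPM in *Atm*-KO. The other 3 markers of that list, named after their values were seen, did not all go with it. *Slc6a5*, the glycine transporter of inhibitory neurons there, stood at 55.2 CPM in mouse 12M, inside the 49.1 to 64.8 CPM of the other mice, and gave most of that mouse's sum over the list. *Spp1* stood at 8.48 CPM in mouse 12M against 17.3 to 28.4 CPM, and *Chat* at 0.0296 CPM against 0 to 1.03 CPM. The 4 markers summed to 158 to 191 CPM in *Atm*-WT and 68.1 to 196 CPM in *Atm*-KO, and none was at 0 everywhere. Over the other 7 mice, the log2 CPM of *Scn3a* and *Slc17a6* had a Pearson r of 0.82 (exact permutation p = 0.0442, adjusted p = 0.0885 over 4 genes) and a Spearman rho of 0.89 (exact permutation p = 0.0123, adjusted p = 0.0476). For *Scn3b* the values were 0.77 (exact permutation p = 0.0216, adjusted p = 0.0865) and 0.86 (exact permutation p = 0.0238, adjusted p = 0.0476). For *Scn9a* they were 0.44 (exact permutation p = 0.344, adjusted p = 0.344) and 0.61 (exact permutation p = 0.167, adjusted p = 0.222), and for *Cacna1h* 0.5 (exact permutation p = 0.337, adjusted p = 0.344) and 0.36 (exact permutation p = 0.444, adjusted p = 0.444). With the 2 mice farthest from the median of *Slc17a6* left out (32M and 11M), r was 0.91, 0.85, 0.84 and 0.29 for *Scn3a*, *Scn3b*, *Scn9a* and *Cacna1h* over 5 mice. These correlations pooled both genotypes, and the genes were picked out after their values were seen. The adjustment over 4 genes does not cover the choice of genes or of *Slc17a6*, so these p-values cannot serve as an independent test. Beyond these correlations, the part of deep nuclear or brainstem RNA in the values of these genes was not tested.

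The genotype differences of these 4 genes depended on mouse 12M. With all mice, the log2 fold changes were -0.05 for *Scn3a*, -0.07 for *Scn3b*, 0.28 for *Scn9a* and -0.12 for *Cacna1h*, with intervals of -0.97 to 0.87, -1 to 0.86, -0.56 to 1.12 and -0.97 to 0.73. Without mouse 12M they were 0.28, 0.25, 0.58 and 0.21, so that those of *Scn3a*, *Scn3b* and *Cacna1h* turned sign. With a surrogate variable in the fit of all 8 mice they were 0.52 (edgeR adjusted p = 0.207), 0.56 (adjusted p = 0.155), 0.7 (adjusted p = 0.286) and 0.32 (adjusted p = 0.563). Without mice 12M and 32M, a choice made after seeing the data, *Scn3a* had a log2 fold change of 0.49 (edgeR adjusted p = 0.212) and *Scn3b* one of 0.54 (edgeR adjusted p = 0.262). None passed the adjusted threshold in any of these fits. *Scn3a* and *Scn9a* lie in a cluster of sodium pore genes on chromosome 2, which runs from *Scn3a* at 65287462 past *Scn2a* and *Scn1a* to the end of *Scn9a* at 66465306, and in mouse 12M *Scn2a* and *Scn1a* stood at 1160 and 427 CPM.

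**Figure D4:**
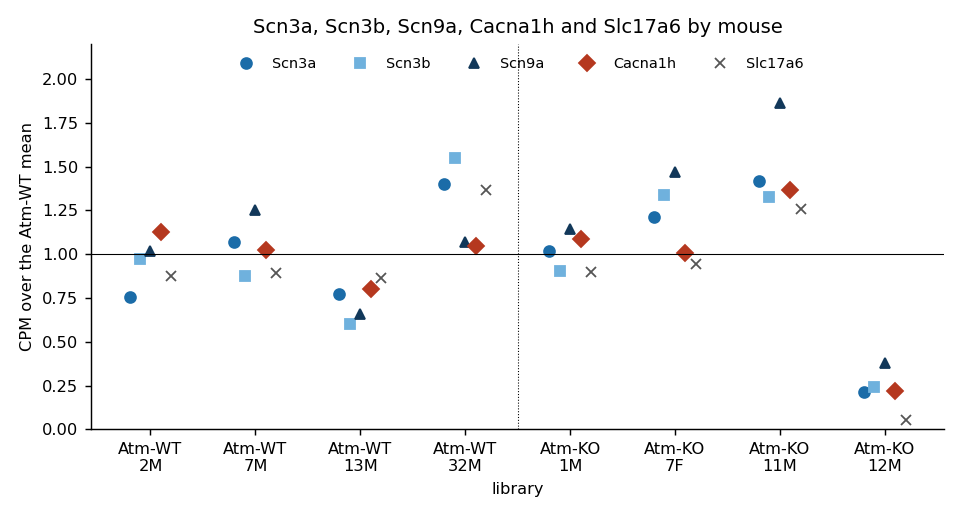
CPM of *Scn3a*, *Scn3b*, *Scn9a*, *Cacna1h* and the deep nuclear marker *Slc17a6* in each library, divided by the mean of the 4 *Atm*-WT libraries. All 5 lie lowest in *Atm*-KO mouse 12M (3.18, 2.66, 0.785, 2.13 and 4.32 CPM in that order of genes).

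None of the 8 auxiliary calcium channel subunit genes passed the test. The beta subunits bind the pore inside the cell and bring it to the membrane, and *Cacnb4* gave 86.3% ± 1.51 of their summed RPKM in *Atm*-WT and 87.1% ± 0.811 in *Atm*-KO. *Cacnb4* stood at 669, 775, 796 and 684 CPM in *Atm*-WT and at 707, 743, 782 and 819 CPM in *Atm*-KO, with overlapping groups (log2 fold change 0.06, interval -0.12 to 0.24). *Cacnb2* (log2 fold change 0, interval -0.15 to 0.15) and *Cacnb3* (-0.06, interval -0.22 to 0.09) had the narrowest intervals of the 4. *Cacnb1*, the beta subunit of skeletal muscle that is also present in brain, had a log2 fold change of 0.01 (interval -0.25 to 0.27).

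The alpha2delta subunits are extracellular proteins, some bound by gabapentin, that raise channel number at the membrane. *Cacna2d2*, whose loss gives the ataxic ducky mouse, gave 70% ± 2.17 of their summed RPKM in *Atm*-WT and 67.4% ± 2.26 in *Atm*-KO. It stood at 207, 192, 178 and 174 CPM in *Atm*-WT and at 162, 198, 167 and 176 CPM in *Atm*-KO, with overlap (log2 fold change -0.1, interval -0.27 to 0.08). *Cacna2d1* stood at 101, 121, 114 and 121 CPM in *Atm*-WT and at 123, 138, 135 and 101 CPM in *Atm*-KO, where mouse 12M shared the lowest value (log2 fold change 0.12, interval -0.09 to 0.33, and 0.21 without mouse 12M, edgeR adjusted p = 0.282). *Cacna2d3* had a log2 fold change of 0.05 (interval -0.1 to 0.19) and *Cacna2d4*, on 107 to 191 counts, of -0.12 (interval -0.57 to 0.34).

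**Figure D5:**
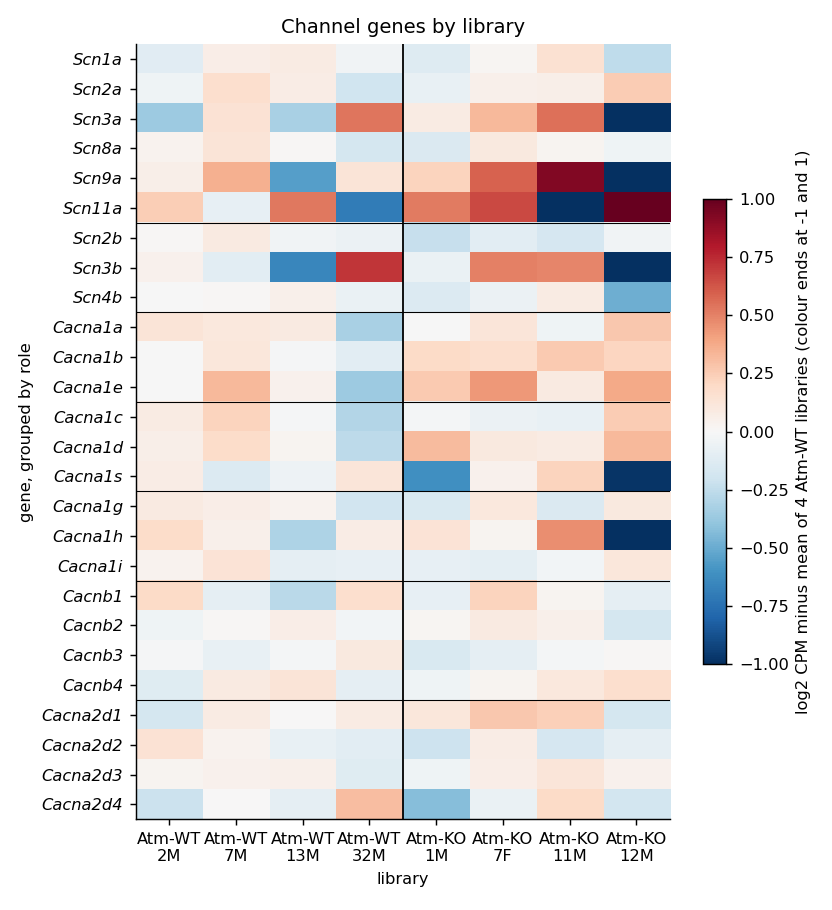
Log2 CPM of 26 channel genes minus their mean over the 4 *Atm*-WT libraries, with libraries in columns and genes grouped by role in rows; red is above and blue below the mean, and colours end at -1 and 1. Mouse 32M is lowest in 9 genes and mouse 12M in 9.

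Partners of the channels were read from a list of proteins that anchor, bind or regulate them. Of 38 listed partner genes 36 were tested, 13 higher and 23 lower in *Atm*-KO, with 3 higher and 6 lower at an unadjusted p under 0.05 and 0 past the adjusted threshold in edgeR. The list was not chosen independently of these data, and 20.2% of all genes passed the unadjusted mark. The gamma subunit family, most of whose brain members carry AMPA receptors, had a lower mean in *Atm*-KO in 6 of 6 tested genes under TMM, RLE, library size and GC scaling, with 4 at an unadjusted p under 0.05. *Cacng4* stood at 37.7, 39.2, 34.6 and 36.6 CPM in *Atm*-WT and at 28.6, 33.4, 29.5 and 24.1 CPM in *Atm*-KO without overlap (log2 fold change -0.36, SE 0.095, edgeR adjusted p = 0.106). *Cacng3* (log2 fold change -0.39), *Cacng5* (-0.2) and *Cacng7* (-0.19) were the other 3. Markers of glia, vessels and choroid plexus also had lower means in *Atm*-KO. The glial lists were lower in 5 of 5 of astrocytes and Bergmann glia (median log2 fold change -0.21, summed level 2050 to 2240 CPM in *Atm*-WT and 1850 to 2060 CPM in *Atm*-KO), 5 of 5 of oligodendrocytes (-0.17, 2880 to 3850 and 1710 to 3030 CPM), 3 of 3 of their precursors (-0.14, 73.5 to 80.1 and 54.3 to 80.7 CPM) and 5 of 5 of microglia (-0.4, 72.6 to 101 and 59.3 to 77.1 CPM). The others were lower in 6 of 6 of pericytes and vascular smooth muscle (-0.39, 64 to 80.5 and 49.4 to 63.1 CPM), 3 of 4 of endothelial cells (-0.24, 161 to 204 and 146 to 184 CPM) and 4 of 4 of choroid plexus epithelium (-0.55, 758 to 1510 and 411 to 1180 CPM). None of these markers passed the adjusted threshold, and their part in the values of the gamma family was not tested.

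Among the other partners, *Sptbn4*, the spectrin that anchors sodium channels at the axon initial segment, stood at 129, 111, 105 and 101 CPM in *Atm*-WT and at 122, 136, 133 and 141 CPM in *Atm*-KO (log2 fold change 0.25, edgeR adjusted p = 0.138), with mouse 2M inside the *Atm*-KO range. *Cabp1*, a calcium sensor that binds calcium channels, had a log2 fold change of 0.25 (edgeR adjusted p = 0.194). *Nalf2*, a subunit of the sodium leak channel complex, had one of -0.29 (edgeR adjusted p = 0.176). *Stac3* (0.84), an adaptor of L-type channels, and *Gem* (-1.26), a small GTPase that inhibits calcium channels, stood below 3 CPM in every library. FGF homologous factors (4 tested) and presynaptic scaffolds (6 tested) had none at that level.

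Some channel genes share exonic bases with another gene. *Cacna1s* shares 16.5% of its exonic length with *Gm37759*, *Cacnb4* 15.7% with *A430018G15Rik* and *Cacna1d* 10.7% with *Chdh* and *Gm50467*, all on the opposite strand, and no other tested gene shared over 4.5%. Without a stated strand setting, reads from such a pair cannot be told apart, and values of these 3 genes are uncertain to that extent.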

How the data were processed

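RNA of frozen cerebellum was sequenced at Novogene on an Illumina HiSeq instrument. The authors checked reads with FastQC 0.11.9, aligned them with STAR to GRCm39 and counted them per gene with featureCounts; the deposited values are raw counts without normalization. Strand and read pair settings are not given in the sources used here.

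Identifiers were matched without version to GENCODE vM39 (56017 of 56691, 98.8%). Genotypes, taken from the labels, were tested against each other in edgeR 4.0.16 under R 4.3.3 (filterByExpr, TMM, glmQLFit and glmQLFTest, Benjamini-Hochberg over 22423 genes, no covariate, common dispersion 0.0404). CPM used TMM factors, and RPKM the union of exons. Permutation tests were exact and two-sided. The procedure was tested on simulated data. Members, gene lists and most choices were set with earlier results of these data known. Named were all members, *Atm*, partners at an unadjusted p under 0.05, the first marker of a list, nuclear RNAs beside a result and genes overlapping a member. Alternatives were DESeq2 1.42.0, limma voom 3.58.1, RLE factors, library size alone, other filters, protein-coding genes, halved counts, GC and length trends, a surrogate variable from sva 3.50.0 and each library left out.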

Additional observations from a re-analysis of the deposited data

Results flagged for a closer look

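Of 58 groups of 4 libraries examined, 4 held a library set apart from the other 3 by more than Dixon's 95% critical value for the gap over the range, and chance gives 2.9. *Cacna1a* had 493 CPM in *Atm*-WT mouse 32M against 656 to 676 CPM in the other *Atm*-WT mice. *Cacna2d3* had 44.1 CPM in the same mouse against 48.9 to 49.7 CPM. *Cacna1c* had 221 CPM in *Atm*-KO mouse 12M against 175 to 182 CPM. *Scn10a* had 0.0264 CPM in *Atm*-WT mouse 2M, a value of 2 counts, and 0 in the other 3.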

How the results depend on the processing

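The number of channel genes past the adjusted threshold was 0 in every alternative run, with 4 genes called among all genes in the reported fit, 1552 by DESeq2 and 3 by limma voom. The count of channel genes lower in *Atm*-KO was 14, and 9 when libraries were scaled by library size alone, where the median of all genes moved from -0.018 to 0.031. Of 492 log2 fold changes of single channel genes over all alternatives, 423 had the sign of the reported value and 69 the other. The sign turned somewhere for 17 genes and held throughout for 9. The signs of *Scn3a* and *Scn3b* turned without mouse 12M and also without mouse 32M, and that of *Cacna1h* without mouse 12M; with a surrogate variable all 3 turned as well, to 0.52, 0.56 and 0.32. The number of channel genes at an unadjusted p under 0.05 was 2 of 26 in the reported fit, where 20.2% of all genes passed it, and from 1 to 6 over the alternatives, where 13.3% to 21.6% did. *Cacna1e* passed an unadjusted p of 0.05 in fewer alternatives than *Cacna1b*, which passed it in each, with p from 0.000683 to 0.0262. Removing trends over GC content and length moved 3 values by over 1 SD: *Cacna1i* to 0.12, *Cacnb3* to 0.07 and *Cacna2d3* to 0.13.

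No paired analysis was possible because the labels pair no mice and the genotypes share only the number 7. Depth limited *Scn4a*, *Scn10a* and *Cacna1f*, which were not tested, and *Scn11a*, on at most 20 counts.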
